A study of Danio rerio with 8 samples.

Results

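NR4A1 (ENSDARG00000000796), FOS (ENSDARG00000031683), JUN (ENSDARG00000043531) and egr1 (ENSDARG00000037421) encode transcription factors of the immediate early response. They are 4 of the 10479 gene identifiers in the deposited table, taken by that NR4A1 identifier and by the exact symbols FOS, JUN and egr1, each of which a single identifier carries. They were picked because their levels in these same libraries were known to differ between the populations and to move together, so both patterns are given here as descriptions with no test. All 4 passed the filter on low values.

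RNA was sequenced from cells of the cryoinjured heart of adult Tg(wt1b:eGFP; mpeg1:mCherry) zebrafish aged 6 to 9 months, sorted 4 days after part of the ventricle was frozen. The eGFP/mCherry double positive population carried both reporters and the mCherry single positive population carried mpeg1:mCherry alone. Both came from injured hearts of the same reporter line, and no cells of uninjured hearts were analysed here. Each population had 4 libraries, numbered 1, 2, 4 and 5, each from a pool of 5 to 7 hearts. Libraries 1 and 2 of either population were made in library batch 1, and libraries 4 and 5 in library batch 2. In this line eGFP follows the regulatory sequence of wt1b, a zinc finger transcription factor gene, and mCherry that of mpeg1, a macrophage gene that B lymphocytes of adult zebrafish are also known to use. The comparison sets mCherry-labelled cells in which the wt1b reporter is on against those in which it is off.

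Immediate early genes are transcribed within minutes of a signal, from factors already present in the cell, and their mRNAs are short-lived. MAP kinase cascades act on the serum response factor and its ETS partners at the promoters of FOS and EGR1, and on CREB and existing AP-1 at others. FOS and JUN pair through leucine zippers to form AP-1, egr1 encodes a zinc finger activator, and NR4A1 an orphan nuclear receptor. In mouse, Nr4a1 is needed for the patrolling class of monocytes. In many tissues these genes also respond to enzymatic dissociation and sorting of cells.

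The values are the authors' normalized counts, on a linear scale, of unknown read depth. Column totals lay between 868929 and 1021901 in double positive libraries and between 803220 and 951137 in single positive libraries. The reporter gene wt1b had 13.6 to 63.1 normalized counts in double positive libraries and 0.122 to 0.469 in single positive libraries. Identifiers of the macrophage gene MPEG1 differed. ENSDARG00000055290 had 167 to 452 in double and 302 to 536 in single positive libraries (log2 difference -0.42, not called), while MPEG1 ENSDARG00000043093 had 191 to 601 in double and 4.98 to 89.5 in single positive libraries (4.33, limma adjusted p = 0.000734). The remaining one, MPEG1 ENSDARG00000078569, was low in both, at 0.0730 to 13.5 in double and 0.0928 to 4.82 in single positive libraries. Double positive library 1 stood apart, with 42.3% of genes under a value of 1, against 10.7% to 19.7% in the other 7 libraries. Since these are bulk samples, a lower level cannot be split into fewer cells that transcribe a gene and less of its RNA per cell.

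All 4 factors were lower in double positive cells, and for each of them the highest double positive library lay below the lowest single positive library. FOS differed most, at 23.4% of its single positive mean, while JUN, egr1 and NR4A1 stood at 35.8%, 39.1% and 39.9%. Over all 10127 tested genes, 7.0% lay below in this way without overlap and 2.81% passed the test as lower (6.69% in either direction). Since the members were chosen on this contrast, nothing is read from the count of 4.

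FOS, the AP-1 subunit that binds DNA as a partner of JUN proteins, had 541, 567, 523 and 182 normalized counts in double positive libraries 1, 2, 4 and 5. It had 2924, 1666, 1812 and 1345 in single positive libraries 1, 2, 4 and 5. Double positive libraries 1, 2 and 4 were close to each other and library 5 lay well below them. The means were 453 ± 181 in double and 1937 ± 687 in single positive cells (SD, n = 4 each), a log2 difference of -2.16 (SE 0.28) or 4.48-fold lower. All log2 differences are double minus single positive on the log2(value + 1) scale, with the standard error of the fit over all tested genes.

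JUN, the other AP-1 subunit, had 136, 225, 260 and 107 normalized counts in double positive libraries 1, 2, 4 and 5, against 560, 457, 460 and 554 in single positive libraries 1, 2, 4 and 5. The means were 182 ± 72.5 in double and 508 ± 57.0 in single positive cells (SD, n = 4 each), and the log2 difference was -1.56 (SE 0.29). Single positive libraries were tightly grouped, with a coefficient of variation of 11.2%, while double positive libraries varied by 39.9%. The lowest single positive library was 1.76 times the highest double positive one.

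The zinc finger gene egr1 had 174, 365, 319 and 165 normalized counts in double positive libraries 1, 2, 4 and 5, against 851, 580, 475 and 709 in single positive libraries 1, 2, 4 and 5. Its means were 256 ± 102 in double and 654 ± 163 in single positive cells (SD, n = 4 each), with a log2 difference of -1.41 (SE 0.29). The groups came nearest to each other at double positive library 2 and single positive library 4, which differed 1.30-fold.

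NR4A1, the orphan nuclear receptor gene, had 675, 406, 371 and 222 normalized counts in double positive libraries 1, 2, 4 and 5, against 1086, 945, 1278 and 883 in single positive libraries 1, 2, 4 and 5. The means were 419 ± 189 in double and 1048 ± 176 in single positive cells (SD, n = 4 each), and the log2 difference was -1.42 (SE 0.26). Its gap was also 1.31-fold at the nearest pair of libraries, double positive 1 and single positive 5. Among the 4 factors NR4A1 differed most between the library batches, at -0.95 in batch 1 and -1.88 in batch 2. FOS had -1.99 and -2.33, JUN -1.53 and -1.59, and egr1 -1.48 and -1.33 in batches 1 and 2.

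**Figure D1:**
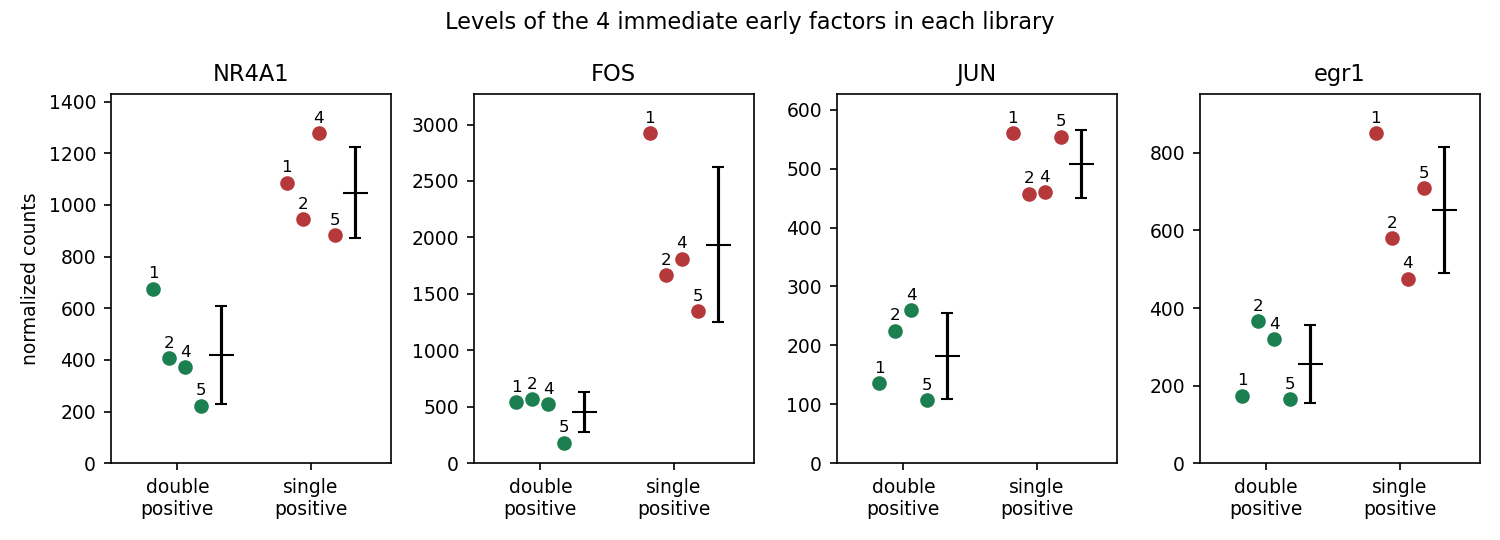
Normalized counts (y axis, linear from 0) of NR4A1, FOS, JUN and egr1 in each library, with the library number above each point, for double and single positive cells. Black bars give the mean and SD of 4 libraries, and in no panel do the 2 populations overlap: FOS, for example, reached at most 567 in double and at least 1345 in single positive libraries.

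Leaving out any single library kept every log2 difference below 0. It ran from -2.43 to -1.83 for FOS, -1.81 to -1.30 for JUN, -1.61 to -1.18 for egr1 and -1.66 to -1.18 for NR4A1, and the value nearest 0 came without double positive library 5 for FOS, JUN and NR4A1 and without double positive library 1 for egr1. Without that sparse library 1, NR4A1 stood at -1.66 and JUN at -1.42. The median log2 difference of all tested genes was -0.16. Centring the libraries to a common median raised this by 0.28, and the members then stood between -1.88 (FOS) and -1.13 (egr1). A log2 difference at or below that of egr1 was found for 17.4% of all tested genes.

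How closely the 4 factors moved together within a population depended on the pair and on double positive libraries 1 and 5. Double positive library 5 held the lowest double positive value of all 4, at -1.18 (FOS), -0.80 (NR4A1), -0.67 (JUN) and -0.54 (egr1) log2 units from the population mean. In double positive library 2 all 4 lay above the mean, by 0.07 (NR4A1) to 0.60 (egr1), and in single positive library 2 all 4 lay slightly below it, at -0.16 to -0.13. In single positive library 1 all 4 lay above the mean, and in the remaining 4 libraries the factors fell on both sides. In double positive library 1, NR4A1 and FOS lay 0.80 and 0.39 above the mean, and JUN and egr1 lay at -0.33 and -0.47. In single positive library 4, NR4A1 lay 0.30 above and egr1 at -0.43, the highest and the lowest single positive value of each. FOS, JUN and egr1 each peaked, among single positive cells, in library 1.

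**Figure D2:**
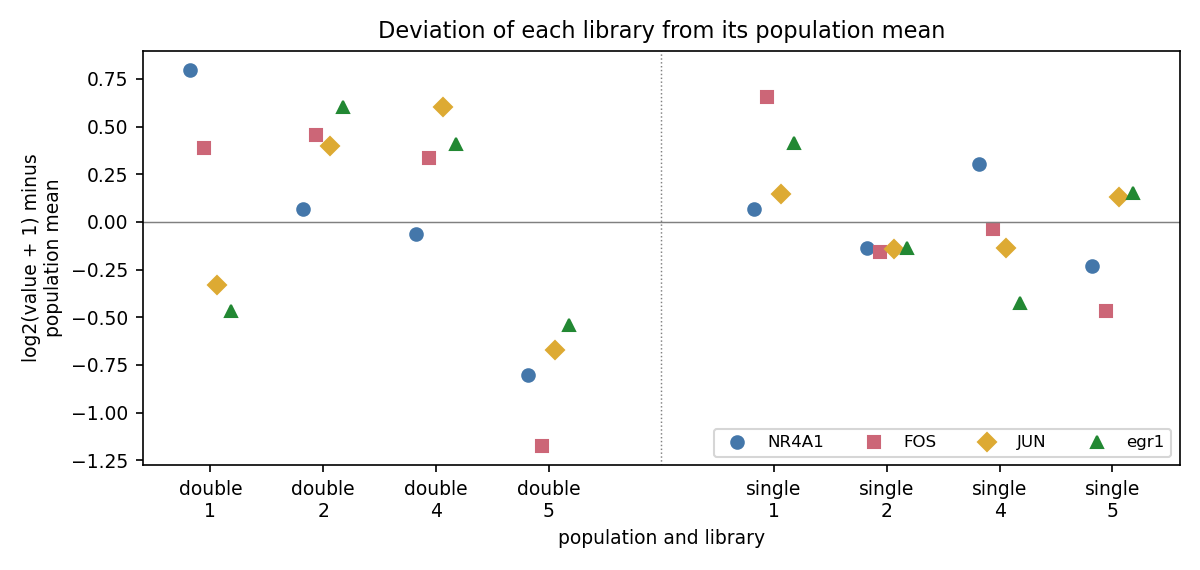
Deviation of each library from the mean of its population (y axis, log2(value + 1) units) for the 4 factors, with double positive libraries on the left and single positive libraries on the right. In double positive library 5 all 4 factors lie below the mean, from -1.18 for FOS to -0.54 for egr1, while in double positive library 1 NR4A1 and FOS lie above it and JUN and egr1 below.

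The populations form separate clusters, so correlations were taken after subtracting each population's mean, over 8 libraries that share their preparation and batches, and are descriptions only. JUN and egr1 were the closest pair, with a Pearson r of 0.90 (Spearman 0.90), and r stayed between 0.89 and 0.93 without any single library. Of 10126 other tested genes, 13 (0.128%) had an r with JUN at least as high as that of egr1, and 45 (0.444%) an r with egr1 at least as high as that of JUN. The log2 ratio of JUN to egr1 had an SD over the 8 libraries of 0.21, against 0.56 to 0.65 for the other 5 pairs. Those SDs also contain differences between the populations. Within double positive libraries the SD was 0.20, against 0.46 to 0.85 for the other 5 pairs. Within single positive libraries it was 0.23, against 0.33 to 0.51. NR4A1 and FOS had an r of 0.74, FOS and JUN 0.65, and FOS and egr1 0.58, while NR4A1 with JUN (0.17) and with egr1 (-0.03) had little or none. For these 5 pairs the share of genes with an r at least as high ran from 1.54% (r with FOS, against NR4A1) to 64.3% (r with egr1, against NR4A1). Since the members were picked for moving together, none of these shares is a test.

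The mean r over the 6 pairs was 0.50 over all 8 libraries. It was 0.57 over the 4 double positive libraries alone and 0.22 over the 4 single positive ones. NR4A1 had an r of -0.37 with JUN and -0.46 with egr1 in single positive libraries. In double positive libraries these were 0.22 and 0.06. Without double positive library 5 the mean over both populations was -0.02, and the pairs of NR4A1 with JUN and with egr1 stood at -0.86 and -0.79. Without double positive library 1 the mean was 0.78 and every pair lay at 0.55 or above. Without any other single library the mean lay between 0.47 and 0.55. Of the 6 pairs, JUN and egr1 was thus the pair whose r did not turn on these libraries.

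**Figure D3:**
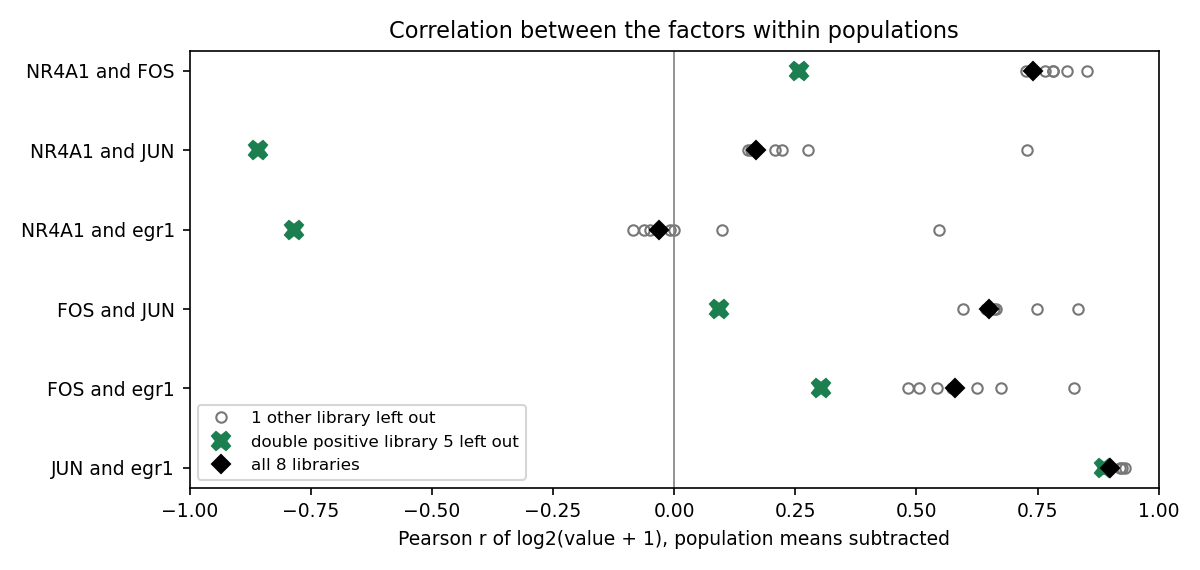
Pearson r between each pair of factors (x axis) after subtracting the population means of log2(value + 1), with all 8 libraries (diamonds), without double positive library 5 (crosses) and without each other library (circles). JUN and egr1 stay at 0.89 or above throughout, while NR4A1 with JUN moves to -0.86 without double positive library 5.

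By the rule for likeness, the genes nearest to the mean profile of the 4 factors over all 8 libraries were rplp2l, RPS10, cicb, hlfa and RPS12, with Pearson r of 0.96 to 0.97 among 5536 genes compared. RPS10, RPS12 and rplp2l encode ribosomal proteins. These r values contain the difference between the populations. After subtracting population means the nearest were rplp2l (r 0.95), si:ch73-21k16.6 (0.93), ppdpfb (0.92), RPS12 (0.92) and the antiproliferative gene BTG2 (0.91). Without double positive library 5 the r of these 5 genes was 0.49 to 0.83.

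The other immediate early transcription factors were lower more often than higher, and their members differed. Of 23 tested genes 6 fell in double positive cells and 1 rose, and 16 did not pass (limma over all tested genes, adjusted p under 0.05, where 2.81% of all tested genes were called lower and 3.88% higher). The median log2 difference was -0.79, against -0.16 over all tested genes, and 19 of 23 lay below 0. Earlier results of these libraries had already shown a lower median for such a list, so this is not independent support. At an unadjusted p under 0.05 there were 13. The share of all tested genes at that looser cut is not given, so nothing is read from this count.

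Both other NR4A receptors were called lower, while NR4A1, as a member, had no test. NR4A3 had 417, 243, 465 and 146 normalized counts in double positive libraries 1, 2, 4 and 5, against 993, 993, 535 and 756 in single positive libraries 1, 2, 4 and 5. Every double positive library of NR4A3 lay below every single positive one, and the log2 difference was -1.46 (SE 0.31, limma adjusted p = 0.0082). NR4A2 had 0.325 to 30.3 in double and 53.5 to 127 in single positive cells, a log2 difference of -3.84 (SE 0.91, limma adjusted p = 0.0169). The NR4A3 call held without any single library (adjusted p up to 0.0471). That of NR4A2 needed each single positive library and double positive library 5, since adjusted p came to as much as 0.0727 when any of them was dropped. Without the mean-variance trend of the fit both calls ended (limma adjusted p = 0.215 for NR4A3 and 0.0818 for NR4A2).

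FOS relatives all stood nearer 0 than FOS, with log2 differences from -0.91 (FOSL1) to -0.24 (FOSL2). FOSL1 averaged 286 ± 72.7 in double and 537 ± 111 in single positive cells (SD, n = 4 each) and fell by 0.91 on the log2 scale (SE 0.25, limma adjusted p = 0.0364). Dropping any library other than double positive 4 ended that call (adjusted p at most 0.130), as did median centring (limma adjusted p = 0.367) and the replicate block (limma adjusted p = 0.0532). FOSB, which encodes another AP-1 subunit, had 1299, 910, 1229 and 576 normalized counts in double positive libraries 1, 2, 4 and 5, against 1536, 1329, 952 and 925 in single positive libraries 1, 2, 4 and 5. The populations overlapped, and the log2 difference of FOSB was -0.28 (SE 0.23). FOSL2 stood at -0.24 (SE 0.19), and at 0.04 with median centring. Whether FOS differed from FOSB or FOSL2 was not tested.

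JUN relatives lay below 0 without passing. JUNB stood at -0.84 (SE 0.27, limma adjusted p = 0.0768) and JUND at -0.59 (SE 0.30, limma adjusted p = 0.296), against -1.56 for JUN. The 3 EGR identifiers besides egr1 also lay below 0, EGR3 at -1.74, EGR2 at -2.85 and egr2a at -0.86, with standard errors of 0.67 to 1.18 and no call. EGR2 had between 0.273 and 26.5 normalized counts in double positive libraries.

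The Kruppel-like factor gene klf2b, whose relatives hold lymphocytes and endothelium quiescent in mouse, had the smallest p of this list. It had 22.01, 63.1, 29.9 and 27.5 normalized counts in double positive libraries 1, 2, 4 and 5, against 266, 301, 200 and 351 in single positive libraries 1, 2, 4 and 5. The groups were far apart and the log2 difference was -3.02 (SE 0.40, limma adjusted p = 0.000331), with a call that held without any single library (adjusted p up to 0.00543). Its paralog klf2a had 97.9 to 151 in double and 171 to 264 in single positive cells, also without overlap, and a log2 difference of -0.79 (SE 0.30) that did not pass. KLF6 stood at -0.41 (SE 0.24).

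Both identifiers with the symbol MYC fell. MYC ENSDARG00000007241 had a log2 difference of -3.64 (SE 0.95, limma adjusted p = 0.0291) and MYC ENSDARG00000045695 of -3.77 (SE 1.06, limma adjusted p = 0.0409). The populations overlapped for ENSDARG00000007241, with 0.381, 76.8, 23.0 and 3.08 normalized counts in double positive libraries 1, 2, 4 and 5. Its single positive libraries had 67.4 to 203. For ENSDARG00000045695 they did not overlap, at 0.105 to 0.879 in double and 13.6 to 34.2 in single positive libraries. Both calls ended when library 5 of the double positive cells or any of the single positive cells' libraries was dropped, with an adjusted p of at most 0.107 for ENSDARG00000007241 and 0.174 for ENSDARG00000045695. For ENSDARG00000045695 the call also ended when double positive library 2 or 4 was dropped, with median centring (limma adjusted p = 0.0543) and with the replicate block (limma adjusted p = 0.0697).

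The gene that rose was maff, which encodes a small MAF protein with a leucine zipper and no activation domain. It had 289, 249, 241 and 244 normalized counts in double positive libraries 1, 2, 4 and 5, against 154, 167, 84.8 and 102 in single positive libraries 1, 2, 4 and 5. Its log2 difference was 1.05 (SE 0.29, limma adjusted p = 0.0341), and the call ended when library 4 or 5 of the double positive cells or any single positive library was dropped (adjusted p at most 0.138). The replicate block also ended it (limma adjusted p = 0.0667 with the block). ATF3, a stress-inducible repressor of the same family of leucine zipper proteins, stood at 0.11 (SE 0.36) and its populations overlapped.

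**Figure D4:**
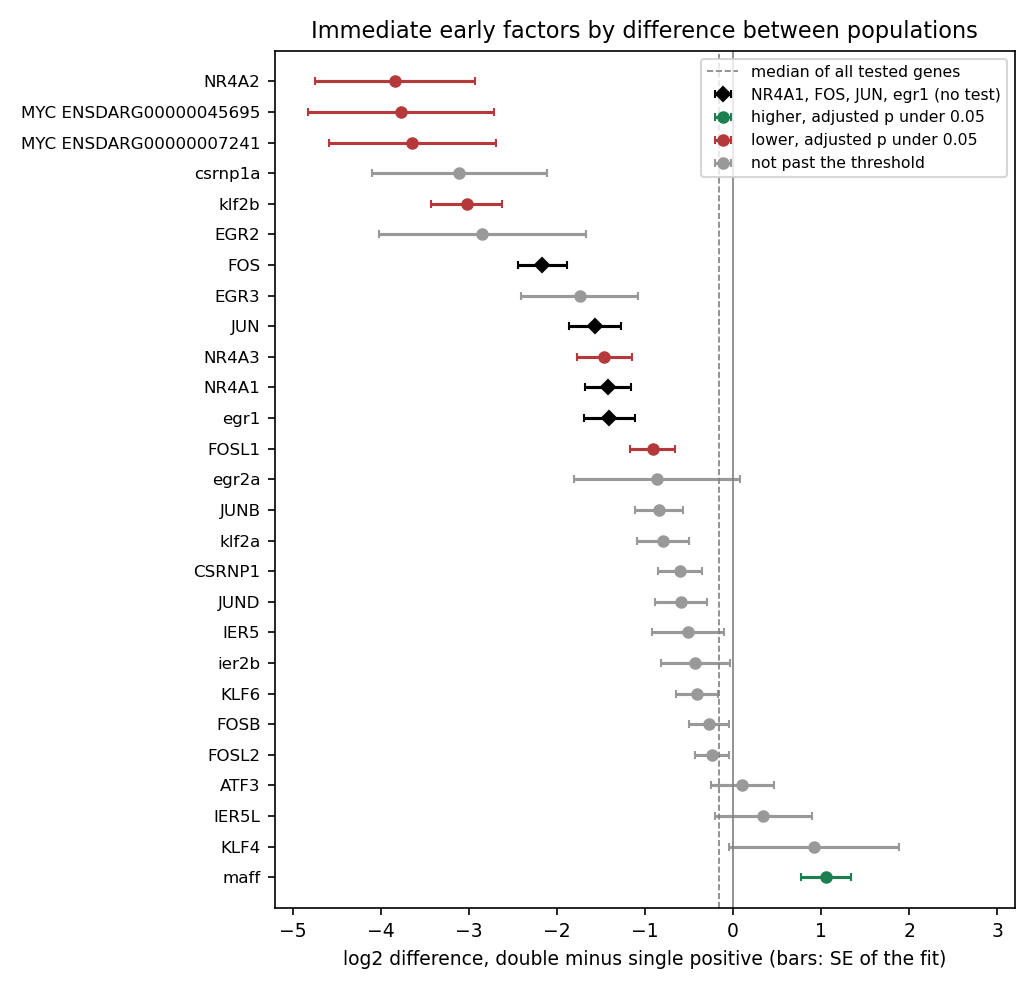
Log2 difference of double minus single positive cells (x axis) with the standard error of the fit for NR4A1, FOS, JUN and egr1 (black diamonds, no test) and the 23 other tested immediate early factors, coloured by the limma call. NR4A2 lies lowest at -3.84 and maff highest at 1.05, and FOSB and FOSL2 lie near the dashed median of all tested genes at -0.16.

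The low levels in double positive library 5 were shared by other genes of this list, a pattern looked for after its values had been seen. Library 5 held the lowest double positive value for 11 of the 23 other immediate early factors, or 47.8%, against 15.4% of all tested genes. Those included FOSB, FOSL1, FOSL2, JUNB, JUND, NR4A3 and CSRNP1. Over all tested genes the sparse double positive library 1 was lowest most often, for 42.9%, and for 34.8% of these 23 factors. In single positive cells library 1 was highest for 60.9% of the 23 factors and 30.4% of all tested genes. Single positive library 4 was lowest of its population for 47.8% of the 23 factors and 36.2% of all tested genes. For single positive library 5 these shares were 39.1% and 27.0%.

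Inhibitors and mRNA decay factors that close the immediate early response did not move as a block. Of 25 tested genes 2 rose, 2 fell and 21 did not pass, with a median log2 difference of 0.01. That median was -0.29 in batch 1 alone and 0.59 in batch 2 alone. Over all tested genes 3.88% were called higher and 2.81% lower. The antiproliferative genes BTG1 and BTG2 parted. BTG2, itself an immediate early gene, had 285, 475, 553 and 132 normalized counts in double positive libraries 1, 2, 4 and 5, against 1031, 820, 1145 and 723 in single positive libraries 1, 2, 4 and 5. It fell by 1.53 on the log2 scale (SE 0.34, limma adjusted p = 0.0119), and the call ended when single positive library 4 was dropped (adjusted p = 0.0721). BTG1 rose, with 2148 ± 227 in double and 1278 ± 86.5 in single positive cells (SD, n = 4 each) and a log2 difference of 0.74 (SE 0.16, limma adjusted p = 0.0107).

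The identifiers of ZFP36L1, which encodes a protein that directs AU-rich mRNAs to decay, went opposite ways. ZFP36L1 ENSDARG00000021443 rose (log2 difference 1.14, limma adjusted p = 0.0341), but dropping library 2, 4 or 5 of the single positive cells, or 4 or 5 of the double positive cells, ended the call (adjusted p at most 0.153), as did the replicate block (limma adjusted p = 0.0593). ZFP36L1 ENSDARG00000016154 stood at -0.82 without passing. NAB1 ENSDARG00000042940, for a corepressor that binds EGR proteins, fell by 3.50 on the log2 scale (SE 0.96, limma adjusted p = 0.0367). Its populations overlapped, with 98.2 in double positive library 1 against 1.29 to 9.06 in the other 3. Dropping any library but that one ended the call (adjusted p at most 0.191). NAB1 ENSDARG00000040700 stood at -0.005 and NAB2 at 0.006, both with overlap. The MAP kinase phosphatase gene DUSP5 had a log2 difference of -1.01 (limma adjusted p = 0.0728), and DUSP6 of 0.55 with overlap.

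Genes of the upstream kinases and of the factors they act on gave 1 call among 36 tested, against 6.69% of all tested genes. MEF2C ENSDARG00000029764, a MADS box factor gene, fell by 3.79 on the log2 scale (SE 1.00, limma adjusted p = 0.0305), and dropping library 2, 4 or 5 of the single positive cells, or 4 or 5 of the double positive cells, ended the call (adjusted p at most 0.138). MEF2C ENSDARG00000009418 stood at -0.06. The serum response factor gene SRF had 58.1 in double and 78.6 in single positive cells on average, with overlap and a log2 difference of -0.53 (SE 0.47). The list median was -0.51. No share of all tested genes is given for an unadjusted p under 0.05. Nothing is read from the 2 list genes that lay under it. They were MEF2C ENSDARG00000029764 and mapk11, which stood at -2.24 with overlap (limma adjusted p = 0.161). A miss here does not show that levels were alike.

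Tested bZIP genes whose proteins can pair with AP-1 or related zippers numbered 10. Of these 2 rose and 0 fell, where 3.88% of all tested genes were called higher and 2.81% lower. The median log2 difference of the 10 was -0.29. It was 0.0045 in batch 1 alone, 0.39 in batch 2 alone and -0.0057 with median centring. Of those that did not pass, ATF7 ENSDARG00000011298 stood at -2.96 without overlap (limma adjusted p = 0.147) and ATF7 ENSDARG00000055481 at -0.50 with overlap. The levels of ATF7 ENSDARG00000011298 were 0.370 to 3.63 in double and 12.2 to 30.7 in single positive libraries. The gene atf5b went the other way, at 2.28 with overlap (limma adjusted p = 0.199). The AP-1 repressor gene JDP2 stood at -0.85 and crema, of the CREB family, at -0.51, both with overlap.

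Textbook targets of AP-1 or EGR1 gave 1 higher and 1 lower gene among 15 tested, with a median of 0.46. Over all tested genes 3.88% were called higher and 2.81% lower. PTGS2 ENSDARG00000010276, a prostaglandin synthase gene, had 2.50, 15.6, 8.53 and 13.6 normalized counts in double positive libraries 1, 2, 4 and 5, against 132, 159, 70.2 and 52.7 in single positive libraries 1, 2, 4 and 5. It fell by 3.32 on the log2 scale (SE 0.70, limma adjusted p = 0.0078), and the call ended when single positive library 2 was dropped (adjusted p = 0.0535). PTGS2 ENSDARG00000004539 stood at -1.20 with overlap and did not pass, at -4.82 in batch 1 and 2.43 in batch 2. The cytokine gene tnfa went the other way, at 1.61 (limma adjusted p = 0.0402). Its populations overlapped, at 82.2 to 276 in double and 27.7 to 86.2 in single positive libraries. The call ended when any library other than single positive 2 or double positive 1 was dropped (adjusted p at most 0.198). It also ended with the replicate block (limma adjusted p = 0.0578). The plasminogen activator gene plaua stood at 1.13 and tgfb1a at 1.63, both with overlap. The list median was -1.94 in batch 1 and 1.25 in batch 2.

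Heat shock genes, which also answer to stress of isolated cells, had 0 calls among 19 tested (limma), against 6.69% of all tested genes. At an unadjusted p under 0.05, where the share of all tested genes is not given, there were 4 heat shock genes. These were BAG3 (-2.35, limma adjusted p = 0.0729), hsp70l (-0.46, limma adjusted p = 0.0735), HSP90B1 (0.52, limma adjusted p = 0.165) and HSP90AB1 (-0.33, limma adjusted p = 0.228). The inducible chaperone gene hsp70l had 3384, 3890, 7760 and 6170 normalized counts in double positive libraries 1, 2, 4 and 5, against 5545, 4977, 9858 and 8235 in single positive libraries 1, 2, 4 and 5. It was lower in batch 1 than in batch 2 in either population, and the populations overlapped. In both batches the double positive libraries lay below the single positive ones. Summed over the 19 genes, levels were 15422 to 22122 in double and 17045 to 24767 in single positive libraries. The median of the list was -0.27, and its part in the result was not tested.

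**Figure D5:**
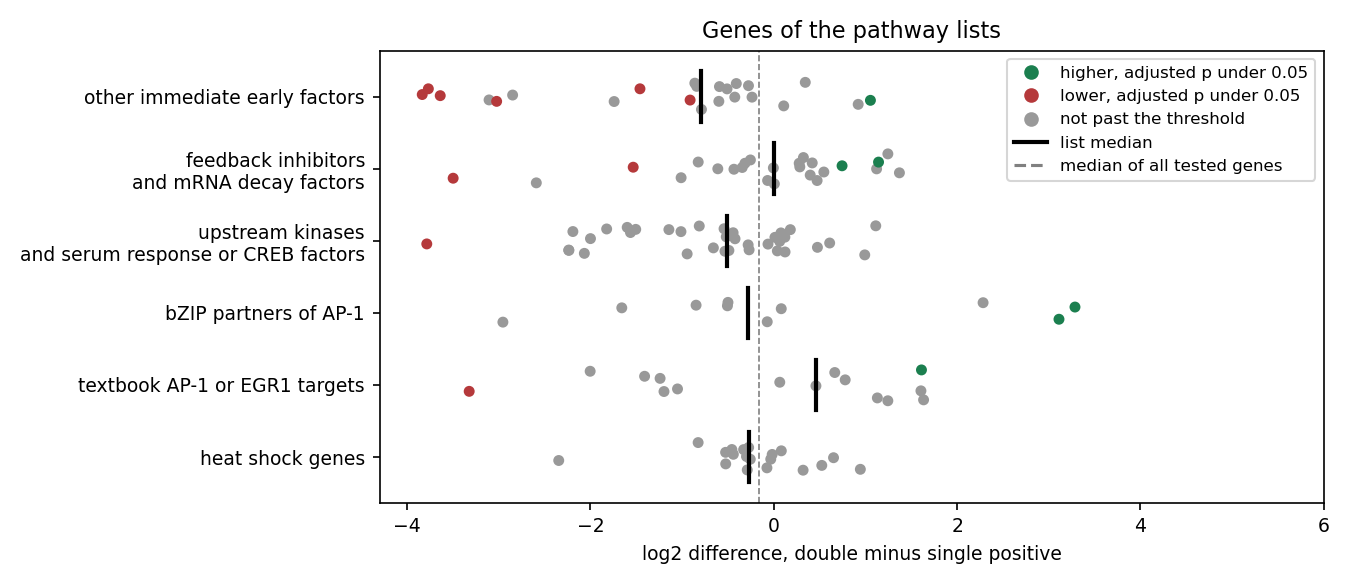
Log2 difference of double minus single positive cells (x axis) for each tested gene of the 6 pathway lists (rows), coloured by the limma call, with the list median as a black bar and the median of all tested genes, -0.16, as a dashed line. The other immediate early factors have 6 of 23 genes called lower, and heat shock genes have 0 of 19 called.

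Across the 6 pathway lists together 6 of 128 tested genes rose and 10 fell, where 3.88% of all tested genes were called higher and 2.81% lower. The counts without single libraries ran from 2 to 8 for the higher and from 3 to 12 for the lower genes, with the highest of both counts without the sparse double positive library 1. Without the mean-variance trend of the fit, 0 rose and 5 fell. For the other immediate early factors the lower count was 2 without any single positive library or without double positive library 5. Of these factors klf2b and NR4A3 were the 2 whose calls held without any single library, and without the trend that of NR4A3 ended (limma adjusted p = 0.215).

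Markers of other cells moved with the same comparison. Of 6 tested B lymphocyte markers 5 fell and 0 rose, where 2.81% of all tested genes were called lower. The median log2 difference of the 6 was -5.11. Their summed levels were 34.3 to 53.3 in double and 304 to 911 in single positive libraries. PAX5, cd79a, cd37 and ighm were under 1 in every double positive library, while ighd reached 25.1 in double positive library 1. The sixth, cd22, lay the other way without overlap, at 10.9 to 48.8 in double and 0.156 to 5.13 in single positive libraries, and did not pass (log2 difference 3.65, limma adjusted p = 0.0706). The calls of PAX5, cd37 and ighm held without any single library. That of ighd ended without single positive library 4 (adjusted p = 0.0516), and that of cd79a when any of 6 libraries was dropped (adjusted p at most 0.137). Within single positive libraries, library 4 had the highest B lymphocyte sum and held the highest NR4A1 but the lowest egr1. Single positive library 1 had the lowest B lymphocyte sum and held the highest FOS, JUN and egr1. Of 3 tested T lymphocyte and NK markers CCR9 and nkl.4 fell (sums 65.4 to 162 in double and 318 to 772 in single positive libraries). The call of nkl.4 ended when any of 7 libraries was dropped (adjusted p at most 0.160). The remaining marker, cd4-1, stood at 1.68 with overlap and did not pass (limma adjusted p = 0.428). Of 6 endothelial markers vwf fell (sums 93.5 to 246 in double and 201 to 554 in single positive libraries), a call that ended when double positive library 5 or any of the single positive libraries was dropped (adjusted p at most 0.0850). Altogether 5 of the 6 endothelial markers lay below 0, with a median log2 difference of -2.50. TIE1, of the same list, lay the other way without overlap, at 63.8 to 126 in double and 25.2 to 54.6 in single positive libraries. TIE1 did not pass (log2 difference 1.27, limma adjusted p = 0.134).

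Of 19 macrophage markers 11 rose and 0 fell, where 3.88% of all tested genes were called higher. For 12 of them the lowest double positive value exceeded the highest single positive value, which held for 7.12% of all tested genes. Their summed levels were 4332 to 8435 in double and 1948 to 3442 in single positive libraries. The genes that rose were MFAP4 identifiers, MPEG1 ENSDARG00000043093, c1qa, c1qb, c1qc, marco and spi1a, several of them paralogs or chains of 1 complex. Of these 11 calls 8 held without any single library. Those that did not were spi1a (adjusted p at most 0.148), MFAP4 ENSDARG00000038683 (at most 0.0868) and MFAP4 ENSDARG00000038681 (at most 0.0511). Of the 19, 4 lay below 0. Among these csf1rb had 27.5 to 68.3 in double and 50.1 to 172 in single positive libraries, with overlap and no call (log2 difference -1.23, limma adjusted p = 0.150). Of 3 neutrophil markers CSF3R rose, a call that ended when double positive library 4 or 5 was dropped (sums 87.7 to 204 in double and 13.6 to 45.6 in single positive libraries). None of the 2 erythroid and thrombocyte markers (sums 0.408 to 17.8 in double and 0.979 to 15.6 in single positive libraries) or the 5 cardiomyocyte markers (sums 15.5 to 146 and 10.5 to 171) was called. Of 4 epicardial and fibroblast markers wt1b alone was called. The cells were sorted on its reporter, so this call does not bear on those cell types. It ended when any of 5 libraries was dropped (adjusted p at most 0.0651). The sums of the 4 were 72.8 to 612 in double and 23.8 to 461 in single positive libraries. No value in the table equals 0. The part of these cell types in the levels of NR4A1, FOS, JUN and egr1 was not tested.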

How the data were processed

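Libraries of poly(A) RNA, amplified from 1 ng of total RNA per pool, were sequenced single-end at 60 to 61 bases, as the labels' protocols state. The submitters' processing notes name CASAVA 1.8.2, cutadapt, RSEM 1.2.3 and the genome build Zv9. The deposited values are a signal that the authors named normalized counts. How they were normalized, with which annotation, and whether batch was adjusted are points not given in the sources used here, so read depth is unknown and no counting interval is printed. Symbols from a name table matched 8512 of 10479 identifiers (81.2%). How reads shared by paralogs were assigned is not stated.

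A gene was tested when it reached 1 per 1e6 of the column total in 4 or more of the 8 libraries, which left 10127 genes. Tests used limma 3.58.1 (R 4.3.3) on log2(value + 1), two-sided, with a trended variance prior and the library batch in the model. Calls needed a Benjamini-Hochberg adjusted p under 0.05 over all tested genes. Fold changes on this scale are understated for low genes. If batch had already been removed before deposit, these p-values may be too small. The code was tested on simulated data. Same-numbered libraries of the populations did not deviate together, so the numbers were not taken as pairs.

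The members and the 6 pathway lists were chosen with earlier results of these data known. List symbols were compared without regard to case, with or without a zebrafish paralog letter. Named genes are the members, up to 4 genes of a list with the smallest p, every called gene of a list with 4 or fewer calls, and the 5 genes nearest to the members' mean profile by either measure. Relatives of the members and the remaining called immediate early factors were named after their values were seen. Other genes, such as SRF, DUSP5, DUSP6, JDP2, crema, KLF6 and ATF3, and paralogs or further identifiers of named genes, were named outside these rules. Alternatives were the pseudocount, filter, scaling, covariates, variance trend, single libraries and single batches. Values of the called genes of the list of AP-1 partners are not reported here. Sequences and coordinates are not used here.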

Additional observations from a re-analysis of the deposited data

Results flagged for a closer look

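Among 108 groups of 4 libraries examined, 10 held a library that stood apart. Its gap to its nearest neighbour exceeded Dixon's 95% critical value for its share of the group's range. Chance gives about 1 in 20 for normally distributed values. The gaps were taken on linear normalized counts, not on the log2 scale of the tests, so that rate need not hold here. FOS was 182 in double positive library 5, against 523 to 567 in the other 3 double positive libraries, and ppdpfb was 113 there, against 348 to 374. Since ppdpfb was named for its likeness to the members' mean profile, which was lowest in that library, its flag is not a separate finding. In double positive library 2, csrnp1a stood at 108 (0.472 to 8.21 in the other 3), MEF2D at 167 (0.605 to 24.1) and EGR2 at 26.5 (0.273 to 4.00). In double positive library 1, NAB1 ENSDARG00000042940 stood at 98.2 (1.29 to 9.06 in the other 3), and in double positive library 4, CREB1 ENSDARG00000093420 stood at 1.08 (0.0188 to 0.193). In single positive library 1, MYC ENSDARG00000045695 was 34.2 (13.6 to 14.4 in the other 3) and atf5b 32.9 (2.59 to 5.63), while MEF2C ENSDARG00000029764 was 18.2 (67.1 to 71.9).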

How the results depend on the processing

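The log2 differences of the 4 members stayed below 0 under every alternative run. NR4A1 moved most, from -1.42 to -0.95 in batch 1 alone and to -1.88 in batch 2 alone. The mean within-population r of the 4 members was 0.50 with all libraries. It was -0.017 without double positive library 5 and 0.78 without double positive library 1, the ends of the range over single libraries. The cause was not tested. Over single libraries left out, genes called higher and lower ranged from 169 to 497 and 101 to 308 of all tested, 2 to 8 and 3 to 12 of the pathway lists, and 0 to 1 and 2 to 6 of the other immediate early factors. With the replicate block, 176 of all tested genes were called lower, 3 list genes higher and 0 of the other immediate early factors higher. Same-numbered libraries correlated at -0.29 to -0.11 in their deviations from population means, which also hold the batch. None was the best partner of its own number, and each best partner lay in the other batch. Without the variance trend 124 genes were called higher, and list genes numbered 0 higher and 5 lower, with 0 higher and 2 lower among the other immediate early factors. Batch 1 alone gave 0 calls in limma (1364 genes at an unadjusted p under 0.05), and batch 2 alone 152 lower genes, 6 of the lists and 2 of the other immediate early factors, with 0 of these factors higher. Quantile normalization and scaling by column totals also left 0 of these factors higher. Median centring put 71.1% of calls on the higher side, against 58.0%. Unknown depth limits the reading of low values.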
